A study of Sus scrofa domesticus with 4 samples.

Results

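Chemokines are small secreted proteins that draw leukocytes into tissue by binding G-protein-coupled receptors. CXCL8 and CXCL2 act mainly on neutrophils through CXCR1 and CXCR2. CXCL9 and CXCL10 are interferon-induced ligands of CXCR3 on activated T cells, CXCL12 is the ligand of CXCR4, CCL5 attracts T cells and monocytes, and CCL20 binds CCR6. CCL2 and CCL8 attract monocytes, through CCR2 among other receptors, and CCL4 attracts monocytes and T cells. In the uterus of early pregnancy such signals are known to shape which leukocytes enter the tissue. These 10 genes were followed in porcine myometrial explants, the smooth muscle layer of the uterus kept in culture, with and without adiponectin, a hormone made chiefly by adipocytes. They were taken by name and, on the array, by every probe whose RefSeq accession belongs to the pig gene. All 10 genes, of 3029 named on the array, had a probe, 14 in total out of 43603, and all 14 were among the 22074 probes tested. CXCL2, CXCL10, CCL2 and CCL5 had 2 probes each, and the brighter one stands for the gene below. The genes were chosen with earlier results of the same treated-over-control contrast known, so their ratios are given as a description without a test.

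The tissue came from 4 mature gilts (Large White x Polish Landrace, age 7 to 8 months) on days 15 to 16 of gestation. After a preincubation of 2 h, slices either received 10 µg/ml of adiponectin or stayed untreated, and both were kept for 24 h. Each of 4 Agilent 2-colour arrays carried 1 treated and 1 untreated RNA. By the dye fields of the labels, arrays 1 and 3 carried the treated RNA in Cy5 while arrays 2 and 4 carried it in Cy3, whereas the labelling text describes treated RNA in Cy5 only. The dye fields set every direction here, and the signs of the deposited series table on arrays 2 and 4 were turned in the same way. The labels tie no array to a gilt, and they leave out how duplicate cultures were combined and whether an array's treated and untreated RNA shared an animal. The spread between arrays may thus be partly technical.

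Slide 1 held arrays 1 to 3, read in scan 1, and slide 2 held array 4, read in scan 2. Between 46.1% and 63.1% of the spots of a channel were well above background. The number of arrays limited the precision. Of 12 smooth muscle markers, 7 had a named probe and all 7 were well above background in both channels of every array, with desmin (DES) between 7.64 and 8.85 log2 units above the median tested probe in the control channel. Explants also hold leukocytes, vessels and other cells, and in such bulk RNA fewer cells of a type and less RNA per cell cannot be told apart. Over all tested probes the ratios of array pairs correlated between -0.31 (arrays 2 and 3) and 0.26 (arrays 2 and 4), a description across probes that share the same spots.

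CXCL8 was the only 1 of the 10 chemokines whose signal was higher in the treated culture on all 4 arrays. Its log2 ratios of treated over control were 0.31, 0.33, 1.54 and 1.41 on arrays 1 to 4, or 1.24-, 1.26-, 2.92- and 2.66-fold. Arrays 3 and 4 were far higher than arrays 1 and 2. The scanner's own error of these ratios was 0.21 to 0.25, so the values of arrays 1 and 2 lay within 2 errors of 0 and those of arrays 3 and 4 did not. The fitted log2 change was 0.90 ± 0.27 (SE, n = 4 arrays), a 1.87-fold higher signal with a 95% interval from 1.17- to 2.99-fold. It was 0.59 without array 3 and 0.63 without array 4. The interval is not adjusted for the choice of genes or for the number of probes tested.

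The other neutrophil attractant, CXCL2, had ratios of 0.40, -0.22, 0.09 and 1.37. Only array 4 stood beyond 2 scanner errors (0.24), and array 2 was below 0. The fitted change was 0.41 ± 0.27, with a 95% interval from -0.27 to 1.08, and 0.01 without array 4, which leaves slide 1 alone. The second CXCL2 probe gave 0.52, -0.19, 0.25 and 1.20, the same sign as the first on all 4 arrays.

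CXCL9 and CXCL10 were higher with adiponectin on arrays 1 and 2 and lower on arrays 3 and 4. CXCL10 had ratios of 0.93, 0.76, -1.49 and -1.14, which is 1.91- and 1.70-fold higher on arrays 1 and 2 and 2.80- and 2.21-fold lower on arrays 3 and 4. Its second probe gave 0.44, 0.44, -1.31 and -0.94. CXCL9 had ratios of 0.25, 0.37, -2.51 and -0.71, a 5.70-fold lower signal in the treated culture of array 3. On the brighter CXCL10 probe each value exceeded 3 scanner errors (0.22 to 0.25), while the CXCL9 values of arrays 1 and 2 lay within 2 (0.21). The fitted changes were -0.23 ± 0.47 for CXCL10 and -0.65 ± 0.46 for CXCL9, with intervals that span 0 widely. CXCL10 was at 0.37 without array 3 and 0.24 without array 4, and CXCL9 at 0.04 without array 3. In the RefSeq gene table (assembly Sscrofa11.1, used for names and order only) CXCL10 and CXCL9 have 1 gene between them.

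Among the other T-cell attractants, CXCL12, a stromal chemokine, had ratios of -0.39, -0.20, -0.72 and -0.12, below 0 on all 4 arrays. Its fitted change was -0.36 ± 0.14, with a 95% interval from -0.70 to -0.02, which is likewise unadjusted. Only array 3 was beyond 3 scanner errors (0.22). CCL5 had ratios of -0.02, 0.09, -0.94 and -0.16 on its brighter probe and -0.14, -0.33, -0.43 and -0.28 on the dimmer one. The probes disagreed in sign on array 2 and in size on array 3, where they were 0.51 apart, and their fitted changes were similar at -0.26 ± 0.19 and -0.29 ± 0.14. The brighter probe was at -0.03 without array 3 and -0.49 without array 1. CCL20 had ratios of -0.13, 0.19, 0.22 and 1.20, with a fitted change of 0.37 ± 0.21 and an interval from -0.14 to 0.88. Its array 4 value rested on a dim spot with a scanner error of 0.38, and with normexp background correction and loess normalisation that ratio was 0.26 and the fitted change 0.16. Without array 4 the change was 0.12.

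The monocyte attractants shared their signs on every array: negative on arrays 1 and 2 and positive on arrays 3 and 4. On array 2, however, all of them lay within 2 scanner errors of 0 (0.21 to 0.24). The same held for CCL2 (0.21) and CCL4 (0.22) on array 4, so these signs are weakly set. CCL8 had ratios of -1.04, -0.31, 2.60 and 0.79, from a 2.05-fold lower signal on array 1 to a 6.07-fold higher one on array 3. CCL4 had ratios of -1.65, -0.33, 1.57 and 0.12, a 3.13-fold lower signal on array 1 and a 2.98-fold higher one on array 3. CCL2 spanned less, with ratios of -0.47, -0.24, 0.42 and 0.37 on the brighter probe and -0.22, -0.10, 0.19 and 0.35 on the dimmer one. The fitted changes were 0.51 ± 0.58 for CCL8, -0.07 ± 0.50 for CCL4 and 0.02 ± 0.21 for CCL2, so the arrays cancelled. Leaving out array 3 turned CCL8 to -0.40 and CCL2 to -0.20. Leaving out array 1 put CCL4 at 0.73 and CCL8 at 1.42, and without array 3 CCL4 was at -0.88. Without array 4 CCL2 was at -0.13 and CCL8 at 0.23, and without array 2 CCL4 was at 0.04. In the gene table CCL2 and CCL8 also have 1 gene between them.

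**Figure D1:**
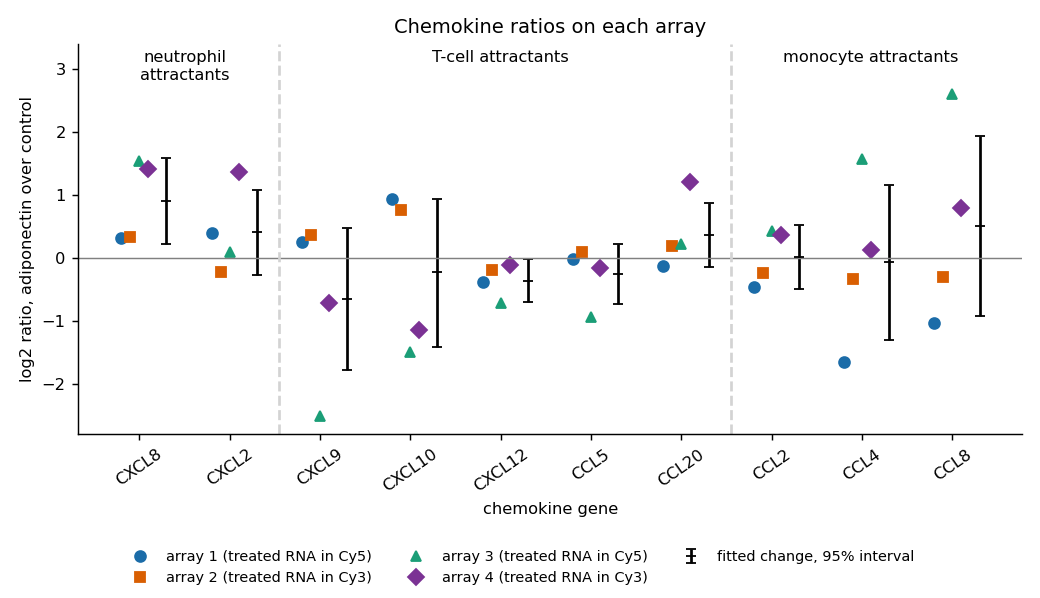
Log2 ratio of adiponectin over control (vertical axis) for the 10 chemokine genes, with 1 marker per array, and the fitted change with its 95% interval as a black bar. CXCL8 lies above 0 and CXCL12 below 0 on all 4 arrays, while CXCL9 and CXCL10 lie above 0 on arrays 1 and 2 and below on arrays 3 and 4, opposite to CCL2, CCL4 and CCL8.

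With limma across all 22074 tested probes, 0 probes (0%) passed an adjusted p of 0.05 (Benjamini-Hochberg), and hence none of the 14 chemokine probes. The smallest adjusted p was 0.857. Without adjustment, 1256 probes (5.69%) had a p under 0.05, of which 834 (3.78% of those tested) were higher with adiponectin and 422 (1.91%) lower. Of the 10 genes, 5 had a fitted change above 0 and the median was -0.03, beside 49.5% and 0.00 over all tested probes. CXCL8 (above 0) and CXCL12 (below 0) were the 2 genes with the same sign on all 4 arrays, beside 6.37% of the tested probes above 0 and 6.23% below 0 throughout. Ratios beyond 1 in size were seen for 2 genes on array 1, 0 on array 2, 5 on array 3 and 4 on array 4. The same held for 3.88%, 4.72%, 5.10% and 3.08% of the tested probes on arrays 1 to 4.

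Grouped by the cells they attract, the class medians differed in sign on each of the 4 arrays. On array 3 the median ratio was 0.82 for the 2 neutrophil attractants, -0.94 for the 5 T-cell attractants and 1.57 for the 3 monocyte attractants. Genes within a class were unlike there: CXCL8 was at 1.54 and CXCL2 at 0.09, and the T-cell attractant CCL20 was at 0.22. On array 4 the medians were 1.39, -0.16 and 0.37. On array 1 they were 0.36, -0.02 and -1.04, and on array 2 they were 0.06, 0.19 and -0.31. The order of the classes was thus not the same on the 4 arrays. The class is a textbook assignment, since CCL4 and CCL5 act on monocytes and T cells alike, and the 2 to 5 genes of a class share a culture and are no replicates.

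Ratios of arrays with the same dye orientation were set against each other, because a probe's dye offset cancels there. CXCL10 was 2.42 higher on array 1 than on array 3 and 1.91 higher on array 2 than on array 4, gaps that 1.13% and 1.05% of all tested probes equalled or exceeded in size. CXCL9 gave 2.76 and 1.08 (0.729% and 5.37% of probes). CCL8 gave -3.64 and -1.11 (0.222% and 4.95%), CXCL8 -1.23 and -1.08 (7.47% and 5.34%), and CCL4 -3.22 and -0.45 (0.335% and 34.1%). CXCL2 gave 0.31 and -1.59 (57.0% and 1.81%), so its gaps had opposite signs. CXCL12 hardly moved, with gaps of 0.33 and -0.08.

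Of the 10 genes, 5 had ratios at least 1 apart between arrays 1 and 3, and 6 between arrays 2 and 4, beside 12% and 6.54% of the tested probes. Both gaps had the same sign for 8 of 10 genes, beside 56.8% of the tested probes. Arrays 2 and 4 differ in slide and scan as well as in culture, which cannot be told apart. These genes were chosen with such values known, so the shares describe them and test nothing.

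**Figure D2:**
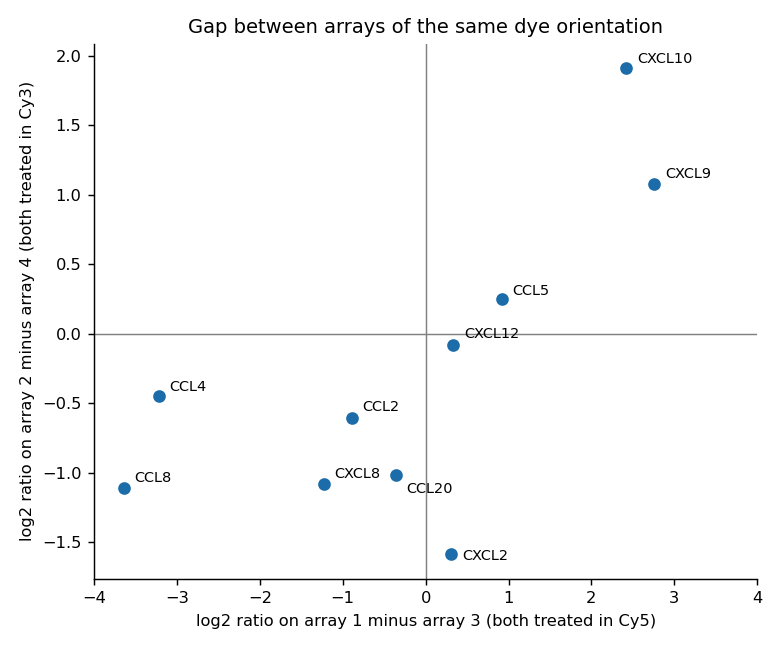
Difference of the log2 ratio between arrays 1 and 3 (horizontal axis) and between arrays 2 and 4 (vertical axis), 1 point per chemokine gene. CXCL9, CXCL10 and CCL5 lie to the upper right, CCL2, CCL4, CCL8, CXCL8 and CCL20 to the lower left, and CXCL2 and CXCL12 to the lower right.

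The signal of the single cultures, in log2 units above the median tested probe of the same channel, showed whether the control or the treated culture set a gap. No chemokine level is compared between genes, since probes differ in efficiency, and chemokine levels are compared only between arrays with the same dye. The ranges of marker levels given elsewhere span both dyes, and the summed ones add probes that differ in efficiency. They are no comparison between arrays. All 14 probes were well above background in both channels of all 4 arrays, and none was saturated.

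In the control cultures labelled with Cy3, CXCL10 was at 5.87 on array 1 and 8.05 on array 3, a 4.50-fold gap. In the treated cultures of the same arrays it was at 6.80 and 6.54, 1.19-fold apart. The treated values lay close together and the controls did not. CCL8 was at 2.35 and -0.72 in these controls (8.34-fold) and at 1.30 and 1.87 in the treated cultures (1.48-fold). CCL4 was at 1.60 and -1.09 in the controls (6.45-fold) and at -0.05 and 0.47 in the treated cultures (1.44-fold). For these 3 genes the gap between arrays 1 and 3 thus lay mostly in the control cultures. CXCL9 differed in both, at 2.52 and 4.20 in the controls and 2.76 and 1.68 in the treated cultures. CXCL8 went the other way, with controls at 5.14 and 4.79 (1.27-fold) and treated cultures at 5.44 and 6.32 (1.85-fold). The control gap between arrays 1 and 3 was the larger one for 7 of the 10 genes, beside 61.8% of the tested probes.

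Arrays 2 and 4 were unlike in both cultures for most of these genes. Over all tested probes the median size of this gap was 0.60 (control) and 0.52 (treated). Of these probes, 17.2% and 1.23% were as far apart as CXCL10, and 7.22% and 1.73% as CCL8. The shares were 1.66% and 8.85% for CXCL8, 0.788% and 9.36% for CXCL2, and 0.0861% and 0.553% for CCL20. They were larger for CXCL9 (32.8% and 78.8%), CXCL12 (28.6% and 27.5%) and CCL4 (23.5% and 43.5%). CXCL10 was at 7.54 and 6.30 in the controls (2.36-fold) and at 8.30 and 5.16 with adiponectin (8.75-fold). CCL8 was at -1.07 and 0.65 in the controls (3.29-fold) and at -1.39 and 1.45 with adiponectin (7.16-fold). CXCL8 was at 7.04 and 4.38 in the controls (6.32-fold) and at 7.37 and 5.80 with adiponectin (2.97-fold). CXCL2 was at 8.53 and 5.39 (8.82-fold) against 8.30 and 6.77 (2.89-fold). CCL20 was at 1.43 and -3.54 in the controls (31.3-fold) and at 1.61 and -2.32 with adiponectin (15.3-fold). Its array 4 values come from the dim spot with a scanner error of 0.38. Array 2 held the higher control signal for 8 of the 10 genes, beside 55.0% of the tested probes, with CXCL9 and CCL8 as the exceptions. CCL5 had controls at 5.45 and 3.76 and treated cultures at 5.54 and 3.61. CCL2 had controls at 7.48 and 5.80 and treated cultures at 7.24 and 6.17.

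**Figure D3:**
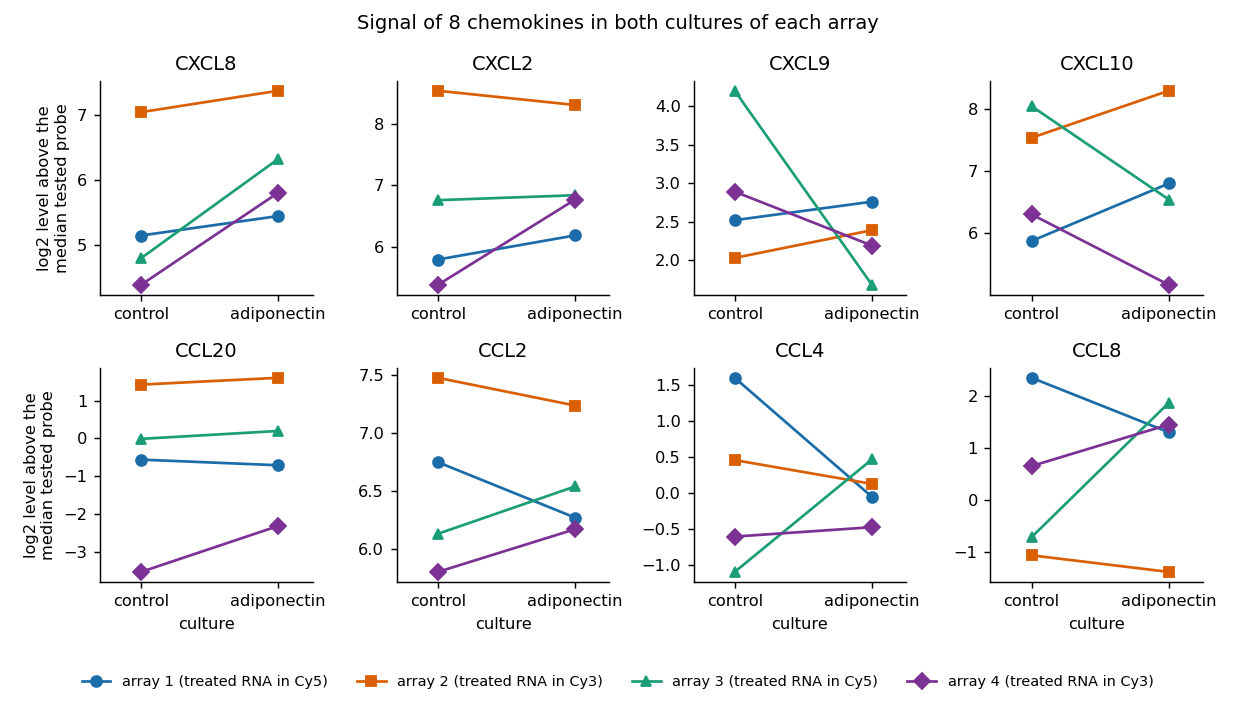
Log2 level above the median tested probe of the same channel and array (vertical axis) in the control and adiponectin cultures for 8 chemokine genes, with a line for each array. Array 2 is above array 4 for CXCL8, CXCL2, CCL20 and CCL2 in both cultures. The controls of CCL4, CCL8 and CXCL10 lie farther apart than the treated cultures between arrays 1 and 3. Lines of arrays 1 and 3 and of arrays 2 and 4 share their dyes.

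The genes with 2 probes gave a check on the measurement itself, since both probes of a gene were read from the same hybridisation. The probes differed on average by 0.12 for CXCL2, 0.16 for CCL2, 0.29 for CCL5 and 0.30 for CXCL10. They shared the sign on 4 of 4 arrays for CXCL2, CXCL10 and CCL2, and on 3 for CCL5. For comparison, the SD of the 4 array ratios was 0.69 for CXCL2, 0.44 for CCL2, 0.47 for CCL5 and 1.26 for CXCL10. On the brighter probe the spread between arrays was thus larger than the mean difference between probes for these 4 genes. The dimmer CCL5 probe had an SD of 0.12, below its mean difference of 0.29 from the brighter one. The other large spreads were 1.33 for both CXCL9 and CCL4 and 1.58 for CCL8, against scanner errors of 0.21 to 0.32. CXCL12 had an SD of 0.26 at scanner errors of 0.21 to 0.22.

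**Figure D4:**
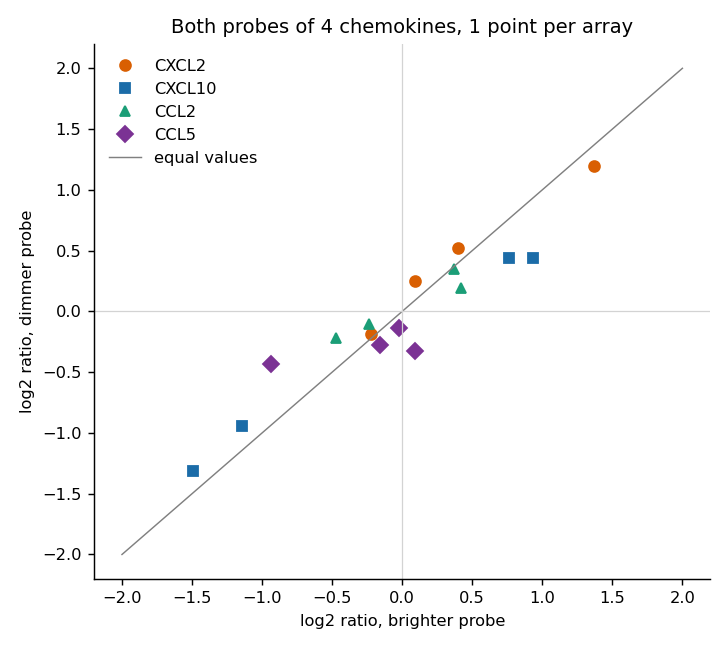
Log2 ratio of adiponectin over control on the dimmer probe (vertical axis) against the brighter probe (horizontal axis) for CXCL2, CXCL10, CCL2 and CCL5, 1 point per array, with a line of equal values. Both probes have the same sign except for CCL5 on array 2, where they read 0.09 and -0.33, and CXCL10 and CCL2 have smaller ratios on the dimmer probe.

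Other chemokine genes had 16 of 30 listed members with a named probe, and 11 were tested. None passed over all probes, and the median was 0.09. A fitted change above 0 was seen for 7 of the 11, beside 49.5% of all tested probes. At an unadjusted p under 0.05 (limma) there was 1 higher gene of the 11, beside 3.78% of all tested probes. It was PPBP, a platelet-derived neutrophil attractant, with ratios of 0.71, 0.08, 2.08 and 0.84 and a change of 0.93 ± 0.26. CCL25, a thymus and gut chemokine, was the other gene with 1 sign on all arrays (-0.12, -0.05, -0.45 and -0.29), beside 12.6% of all tested probes.

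The next 3 genes were chosen after their values were seen. AMCF-II, a porcine neutrophil attractant, had ratios of 0.56, -0.54, 0.88 and 0.94. CXCL11, the third CXCR3 ligand and the next gene to CXCL10 in the table, had ratios of 0.44, 2.49, -1.34 and -1.02, the signs of CXCL9 and CXCL10. CCL3L1, an attractant of monocytes and T cells, had -1.86, -0.58, 2.03 and 0.44, the signs of CCL4 and CCL8. Its change was 0.01 ± 0.61 and that of CXCL11 was 0.14 ± 0.60.

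Receptor genes were covered in part: 14 of 22 had a named probe and 9 were tested, with 0 called and a median change of 0.03. Of the receptors of these chemokines, CXCR1, CXCR2, CXCR3 and CCR6 had no named probe and CCR2 was well above background on only 1 array in either culture. CCR1, a receptor of CCL5, had ratios of 1.10, -0.78, 1.75 and 1.03. CXCR4 had -0.20, -0.34, 0.41 and 0.31, and the CXCL12-scavenging receptor ACKR3 had 0.97, 0.12, -0.98 and 0.16. ACKR1, which binds CXCL8, CCL2 and CCL5 on venules, had -1.58, -0.36, -0.55 and 0.12 and a change of -0.59 ± 0.21.

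All 16 genes listed as inducers of chemokines or as regulators of such signalling (among them NFKBIA and TNFAIP3) had a named probe. Of these, 13 were tested. None was called, none had an unadjusted p under 0.05, none had 1 sign on all arrays, and the median was 0.05. Interferon gamma (IFNG) and IFNB1 were not well above background in any channel. The other inducers below were chosen after their values were seen. The interferon-responsive factor IRF1 had ratios of 0.05, -0.30, -0.59 and -0.72. IL1B, an inducer of CXCL8 and of CCL chemokines, had -1.95, 0.17, 3.14 and 0.91. Its control level was 3.09 on array 1 and 0.22 on array 3, and its treated level 1.13 and 3.35. TNF had -0.13, -0.22, 0.35 and 0.21.

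Markers of the attracted cells were read on the same arrays. For monocytes and macrophages 10 of 15 markers had a named probe and 9 were tested. Their median ratio was 0.52, -0.30, 2.22 and 0.63 on arrays 1 to 4, with 8, 1, 9 and 9 of the 9 above 0. The shares of all tested probes above 0 were 51.3%, 48.7%, 51.4% and 47.1%. Markers of 1 list share a culture and are no replicates. CD163 had ratios of 0.55, 0.14, 2.22 and 1.44, VSIG4 (chosen after its values were seen) 1.07, -0.04, 2.44 and 1.32, and SIGLEC1 was not well above background anywhere. The summed marker level ranged from 2.41 to 4.06 in the controls and from 2.84 to 4.83 in the treated cultures. The markers and the monocyte attractants had the same sign on arrays 2, 3 and 4 and opposite signs on array 1 (0.52 against -1.04). The part of these cells in the chemokine ratios was not tested.

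Neutrophil markers had a median ratio of 0.42, -0.34, -0.29 and 0.36 over 5 tested of 10 listed. On array 3, where CXCL8 was at 1.54, their median was thus below 0. There FCGR3A was at 1.47, while S100A8, S100A9, S100A12 and PGLYRP1 were below 0. CSF3R, MPO, ELANE and CXCR2 had no named probe. The summed level of the neutrophil markers was 1.74 to 3.77 in the controls and 2.11 to 4.00 in the treated cultures. All 6 with a named probe were well above background on some array. For T cells and NK cells the median was 0.31, -0.22, 0.06 and -0.03 over 6 tested of 15 listed. CD3D and CD8A were not well above background in any channel, CD3E was so on 2 arrays in either culture, and CD4 on 0 in the control and 1 in the treated channel. IL7R, an interleukin receptor of T cells, had ratios of 2.02, 0.62, 2.50 and 2.94 but was well above background on 0 arrays in the control channel and 3 in the treated one. The summed level of the 6 tested T-cell and NK-cell markers ranged from 0.61 to 1.02 in the controls and from 0.82 to 0.93 with adiponectin. This sum includes NKG7 and GZMB and leaves out CD3E, CD3D, CD2, CD4 and CD8A, which were not tested, so it is no measure of T cells alone. Smooth muscle markers had medians of -0.66, -0.15, 0.58 and -0.25, with 0, 1, 7 and 2 of 7 above 0. Of all tested probes, 51.3%, 48.7%, 51.4% and 47.1% were above 0 on arrays 1 to 4. The summed smooth muscle levels were 9.66 to 10.83 in the controls and 9.69 to 10.64 in the treated cultures. The signs of the smooth muscle medians on arrays 1 to 3 matched those of CCL2, CCL4 and CCL8. Endothelial markers had medians of 0.07, -0.05, -0.04 and 0.08 and epithelial markers 0.12, 1.02, -0.75 and 0.84. The part of these cell types in the chemokine ratios was not tested either.

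**Figure D5:**
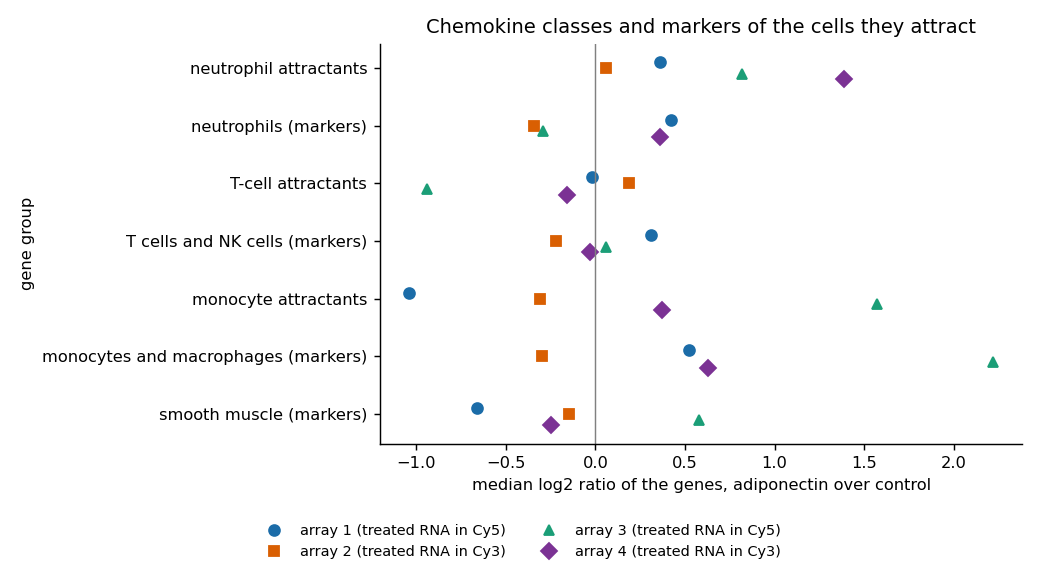
Median log2 ratio of adiponectin over control (horizontal axis) for the 3 chemokine classes and for the markers of the cells they attract and of smooth muscle, 1 marker per array. On array 3 the monocyte attractants (1.57) and the monocyte and macrophage markers (2.22) lie to the right and the T-cell attractants (-0.94) to the left.

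The genes nearest to 3 of the chemokines over the 4 ratios were found among 2131 named genes by the mean absolute difference. For CXCL8 they were MMP9, a matrix-degrading gelatinase of leukocytes (0.24), CD163 (0.28) and FCER1G, the shared signalling chain of Fc receptors (0.29). For CXCL10 they were PTN, a growth factor (0.38), CLCA1 and ALDOC, a glycolytic aldolase (both 0.40). ALDOC had ratios of 1.46, 0.49, -1.41 and -0.42. For CCL2 they were ARPC5, an actin nucleation subunit, and CST3, a cysteine protease inhibitor (both 0.08), and CCND3, a cyclin (0.09). None of the 9 was another of the 10 chemokines, and with 4 arrays such nearness describes these cultures only.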

How the data were processed

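Chemokine RNA was read on 4 dye-swapped 2-colour arrays, each with 1 treated and 1 control culture. The deposited scanner files hold spot intensity and a log10 ratio of Cy5 over Cy3, which per the file headers come from Agilent Feature Extraction 10.7.3.1 after background subtraction and dye normalisation. The ratio was converted to log2, with its sign turned on arrays 2 and 4. Ratios of exactly 0 and spots with outlier flags were left out. The deposited series table holds log2 ratios whose scale, centring and direction are not given in the sources used here. Its slopes on the scanner ratio were 1.00, -1.00, 1.00 and -1.00, its values lay within 0.01 of the turned ratios for 100% of 22073 tested probes, and its column medians were -0.10, 0.13, -0.14 and 0.16. How it handled dim probes stays unknown.

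Probes that exceeded background clearly on 3 or more of the 4 arrays in 1 culture, with a ratio on all 4 arrays, were fitted with limma 3.58.1 (R 4.3.3) with a treatment and a dye coefficient. This dropped 214 bright probes without a full set of ratios. Of 7125 RefSeq probes, 6700 received 1 of 3029 gene names. Values after ± are moderated SEs. Levels are log2 processed intensity minus the median of the tested probes of that channel. The fit was also run on simulated ratios with independent errors for each array. This checks the calculation only and does not bear on the errors of these arrays. Genes were named by these rules: all 10 chemokines, per pathway list up to 4 tested genes with 1 sign on all arrays, receptors of the 10, and the 3 genes nearest to CXCL8, CXCL10 and CCL2. Genes, lists and rules were chosen with earlier results of these data known. Alternatives were another background correction and normalisation, centring, the deposited table, no dye coefficient, other filters, probe averaging and leaving out each array. Some results within the lists are not reported here.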

Additional observations from a re-analysis of the deposited data

Results flagged for a closer look

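Among 80 genes with 4 array ratios (the 10 chemokines and the tested genes of the lists), 3 had a single array that stood far off. Chance alone marks about 1 in 20 such sets. None was a chemokine. CD3G, a T-cell receptor chain, had a ratio of 2.29 on array 2, while the rest ranged from -0.33 to 0.04, and it was well above background on 3 arrays in the control and 2 in the treated channel. The smooth muscle gene CNN1 had 0.52 on array 3, with the rest from -0.33 to -0.29. PGLYRP1, a neutrophil granule gene, had -1.24 on array 4, with the rest from -0.34 to -0.28.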

How the results depend on the processing

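The limma count of called probes was 0 under the main setting and under normexp with loess, the deposited series table, median centring, no dye coefficient, zeros kept, outlier-marked spots kept and no filter on dim probes. Leaving out 1 array gave between 0 and 12 called probes. The 12 came without array 3, and none was a chemokine probe. At an unadjusted p under 0.05 the 834 higher and 422 lower probes became 1299 and 1089 without array 3 and 432 and 265 without array 4, and the lower ones 635 without array 1. In such fits 1 array is the sole one of its dye orientation and counts as much as the other pair. The number of chemokines above 0 was 5 under all settings that kept the 4 arrays and gave it, and between 5 and 6 when 1 array was left out. Leaving out 1 array changed the sign of CXCL9, CXCL10, CCL2, CCL4 and CCL8. CXCL8 stayed between 0.59 and 1.21, CXCL12 between -0.44 and -0.28, CXCL2 between 0.01 and 0.81, CCL5 between -0.49 and -0.03, and CCL20 between 0.12 and 0.63. Settings that kept all 4 arrays turned no sign, and CCL20 was at 0.16 with normexp and loess. Every array holds both cultures, so the fit of the ratio is already paired by array. Pairing by animal was not possible, since the labels leave out whether an array's cultures shared one. A slide term would take up array 4 whole, so the values without array 4 are also those within slide 1.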

Other observations

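Some lymphoid and homeostatic chemokines, chosen after their values were seen, had large ratios of unlike sign between arrays. CXCL14, a chemokine of epithelia and stroma, had 1.12, -0.77, -0.53 and 1.27. CCL21, which guides cells into lymphatic vessels, had -1.60, 0.13, 0.57 and 0.03, and CCL19, which shares its receptor CCR7, had -0.85, -0.43, -0.32 and 0.61. ACKR4, a scavenging receptor of both, had 2.25, -0.91, 0.11 and -2.35. The fitted changes of these 4 genes lay between -0.25 (CCL19) and 0.27 (CXCL14).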
